A study of Mus musculus with 11 samples.

Results

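The genes described are 10 heat shock and co-chaperone genes, Hspa1a, Hspa1b, Hspa8, Hsp90aa1, Hspb1, Hsph1, Dnajb1, Hspd1, Hspe1 and Bag3. They were chosen by name, and every probe set annotated to any of them was taken, which gave 23 of the 45101 probe sets on the array; a probe set is a group of short probes that reads the transcripts of a gene. Of these 23 probe sets 21 lay among the brighter 60% that were kept, so that all 10 genes were represented among the 12709 genes tested. The study hybridised RNA of epididymal fat, one of the abdominal fat pads of male mice, to 11 one-colour Affymetrix arrays, 1 per sample. All mice were male C57BL/6 animals aged 3 months on standard chow, and their tissue had been snap frozen. Wild-type mice (B1+/+) gave 4 arrays, and mice without the kinin B1 receptor (B1-/-) gave 4. Fat rescue mice (aP2B1-B1-/-) gave 3. These carry the same deletion and in addition express the receptor in fat, under a promoter named aP2, the promoter of Fabp4, which is also known to be active in macrophages. Whether a rescue line rests on 1 founder is not given in the sources used here. The labels call the arrays of a genotype biological replicates, and p-values measure only the spread between these samples.

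Heat shock proteins are chaperones that keep other proteins folded. The Hsp70 proteins bind unfolded stretches and release them in a cycle driven by ATP, J-domain proteins such as Dnajb1 deliver the substrate, and Hsph1 and Bag3 act as nucleotide exchange factors that open the cycle again. Hsp90 finishes the folding of kinases and steroid receptors, small heat shock proteins hold unfolded proteins without ATP, and Hspd1 with Hspe1 forms the folding chamber of the mitochondrial matrix. Many of these genes are switched on by heat shock factor 1, which binds heat shock elements, arrays of inverted repeats of GAA, and they answer to heat and other stresses in fat as in other tissues.

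Promoter windows of RefSeq genes on the mouse assembly GRCm38.p6, from 250 bases before to 50 after a gene's start, were at hand for 8 of the 10 genes, in 11 windows; Hspa8 and Hsp90aa1 were not matched. They were searched for 2 adjoining units of a heat shock element, GAANNTTC or TTCNNGAA, each of which is its own reverse complement, and for 3 units, GAANNTTCNNGAA or its reverse complement TTCNNGAANNTTC, every match of which also holds matches of 2 units. Matches of 2 units were found in 8 of the 11 windows, of 7 of the 8 genes, against 15.1% of all 32851 windows of this length. Matches of 3 units were found in 4 of the 11, of 3 genes (Hspd1, Hspe1 and Hsph1), against 0.603% of all windows. These windows are not separate: those of Hsph1 overlap and hold the same match, and Hspd1 and Hspe1 share theirs. Dnajb1 had neither. The match of Bag3 and the 3-unit match of Hsph1 lay after the gene's start and are not shown. Hspd1 and Hspe1 stand head to head on chromosome 1 with no protein-coding gene between them. Their windows share 285 bases, so the same stretch (chr1:55088047-55088088) reads on the plus strand towards Hspe1 and on the minus strand towards Hspd1. Hspa1a and Hspa1b are also neighbours, on chromosome 17, and their 300-base windows differ in only 4 bases; the stretches with the match (chr17:34972241-34972272 and chr17:34959323-34959354, minus strand) are alike. The matches of Hspb1 lie at chr5:135887790-135887821 and chr5:135887810-135887841 on the plus strand, and that of Hsph1 before its start at chr5:149636350-149636381 on the minus strand. The stretches are shown, 5′ to 3′, because they are what the pairs Hspd1 with Hspe1 and Hspa1a with Hspa1b, whose signals are compared below, have in common; those of Hspb1 and Hsph1 are the other matches before a start. Capitals mark the matched letters, and a match describes the sequence only.
Hspe1: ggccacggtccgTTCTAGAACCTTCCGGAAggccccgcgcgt
Hspd1: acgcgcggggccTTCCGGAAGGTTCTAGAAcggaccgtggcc
Hspa1a: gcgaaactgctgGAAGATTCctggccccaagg
Hspa1b: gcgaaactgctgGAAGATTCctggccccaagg
Hspb1, farther from the start: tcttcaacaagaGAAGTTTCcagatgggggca
Hspb1, nearer to the start: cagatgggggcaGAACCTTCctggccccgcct
Hsph1: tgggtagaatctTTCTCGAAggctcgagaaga

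Arrays had been scaled by the authors' software to a trimmed mean of about 200 in linear signal units. Their medians were 41.3 to 45.1 in wild type, 46.5 to 48.8 in knockout and 45.6 to 46.6 in fat rescue. Every wild-type array thus had a lower median than all arrays of the other genotypes. The first array of wild type and that of fat rescue had the lowest scores on the main axis of variation, -45.4 and -34.1, and values without them are given where they matter. Fat cell markers were bright in every array: the summed signal of 7 measured markers was 68467 to 100369 over all arrays, whereas 1 of 6 epididymis markers was measured, at 14.3 to 40.6. Bdkrb1, the deleted gene, has 1 probe set, below the filter on brightness, which read 5.5, 32.2, 3.7 and 8.9 on the wild-type arrays, 4.8, 29.4, 6.9 and 29.7 on the knockout arrays, and 73.4, 57.8 and 60.4 on the rescue arrays. The rescue arrays lay above all others, and wild type and knockout overlapped at 3.7 to 32.2, so this probe set does not check the deletion. In bulk tissue, fewer cells of a type and less RNA per cell cannot be told apart.

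No heat shock gene passed the test in any comparison of genotypes. With limma, 0 of 10 members had an adjusted p under 0.05 between knockout and wild type, where 0.0393% of all genes did. The same count was 0 between fat rescue and knockout, where 0% of genes passed, and 0 between fat rescue and wild type, where 0.0157% did. The F test over the 3 genotypes also passed 0 members (smallest adjusted p = 0.684), against 0.0393% of genes, and 1 member, Hspb1, had an unadjusted p under 0.05 in it, against 6.41% of genes. Tested singly, 0 of the 23 probe sets passed in any comparison, where 0.0178%, 0% and 0.0155% of all 45037 probe sets did. A count of 0 of 10 members lies near these backgrounds, and the 95% confidence intervals below give the sizes of difference that the arrays leave possible.

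**Figure D1:**
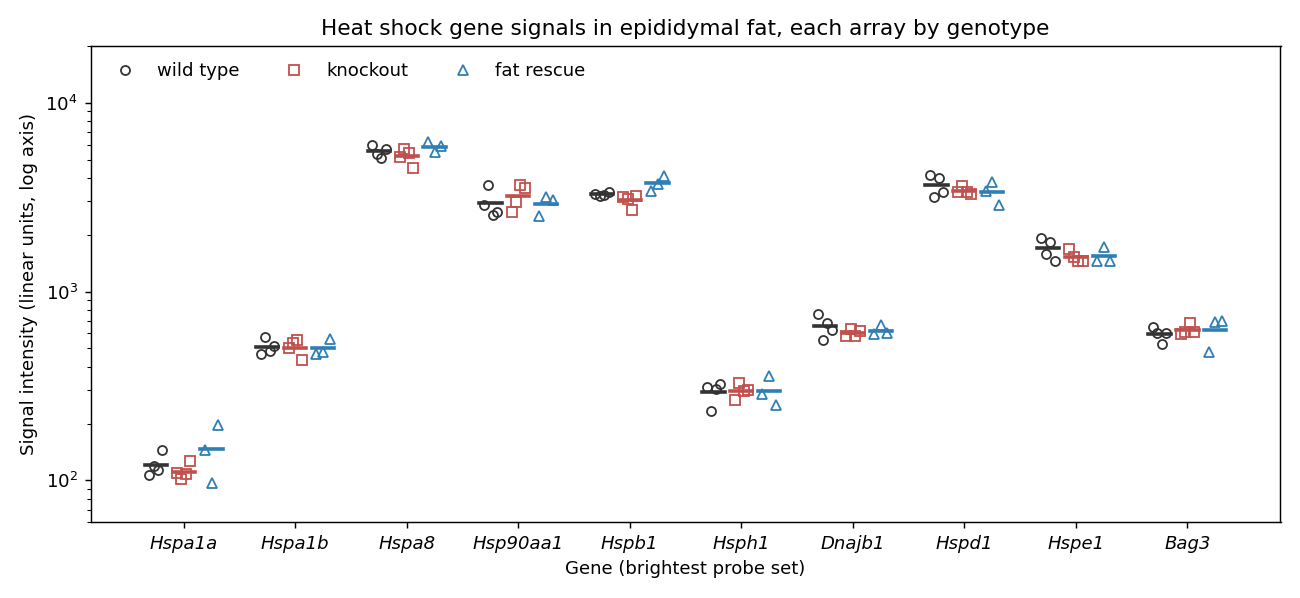
Signal of the brightest probe set of each heat shock gene on every array (log axis, linear signal units), with wild type (4 circles), knockout (4 squares) and fat rescue (3 triangles) side by side and a line at each group's mean. Groups overlap in every gene but Hspb1, whose 3 rescue arrays (3403 to 4114) lie above the other 8; heights of different genes cannot be compared, since each probe set has its own brightness.

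Hspa1a and Hspa1b encode the stress-inducible cytosolic Hsp70. The only probe set of Hspa1a read 107, 119, 113 and 145 on the wild-type arrays, 110.0, 101, 108 and 126 on the knockout arrays, and 145, 97.0 and 197 on the rescue arrays. Rescue array 3 was the highest of all and rescue array 2 the lowest, so the rescue mean of 146 ± 50.01 (SD, n = 3) rests on uneven arrays. Against wild type at 121 ± 16.8 (n = 4) the log2 difference was 0.23 ± 0.21 (SE; limma adjusted p = 0.814), and against knockout at 111 ± 10.7 (n = 4) it was 0.34 ± 0.21 (adjusted p = 0.998), a 95% interval from -0.12 to 0.80. Without rescue array 3 the difference from wild type was -0.017.

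The brightest probe set of Hspa1b read 469.8, 575.5, 482.5 and 512 on the wild-type arrays, 504.3, 531, 553 and 433 on the knockout arrays, and 465, 479 and 563 on the rescue arrays. The 3 genotypes overlapped throughout. Knockout differed from wild type by -0.014 ± 0.11 on the log2 scale (adjusted p = 0.987; 95% interval -0.24 to 0.21), and fat rescue differed from wild type by -0.023 ± 0.11 (adjusted p = 0.975). The remaining probe sets of Hspa1b gave -0.097 and -0.0056 in knockout against wild type. The coding sequences of Hspa1a and Hspa1b are known to be nearly the same, so probes can bind transcripts of either gene and their separate values are uncertain.

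Hspa8 encodes Hsc70, the Hsp70 that cells make without stress. Its brightest probe set read 5999, 5327, 5123 and 5685 on the wild-type arrays, 5164.5, 5721, 5389 and 4537 on the knockout arrays, and 6199, 5495 and 5879 on the rescue arrays. Knockout array 4 was the lowest and rescue array 1 the highest, and the groups overlapped. The log2 difference was -0.091 ± 0.089 in knockout against wild type (adjusted p = 0.831) and 0.17 ± 0.10 in fat rescue against knockout (adjusted p = 0.998). The IDs of the brightest and second brightest probe sets of Hspa8 end in _x_at, and whether they read Hspa8 alone was not checked. The probe sets of Hspa8 differed in which arrays were high. The third brightest read 2781 in wild-type array 2 and 2293 in knockout array 3, and 910.1 to 1545 in the other 9 arrays, while the brightest probe set placed neither of these arrays apart. Across the 11 arrays its log2 signal followed that of the second brightest (r = 0.88) and not that of the brightest (r = -0.25), both given as descriptions. The dimmest kept probe set, at 39.3 to 85.6, read 78.5 to 80.7 in fat rescue and 59.9 to 74.8 in knockout, without overlap (log2 0.18 ± 0.26, adjusted p = 1.0). Against wild type, whose arrays spanned the whole range, it gave 0.58 ± 0.26 in fat rescue (unadjusted p = 0.0405, adjusted p = 0.741) and 0.41 ± 0.24 in knockout (adjusted p = 0.793).

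Hsph1, of the Hsp110 type, read 313, 234, 305 and 323 on the wild-type arrays, 267, 329.6, 296 and 302 on the knockout arrays, and 286, 356 and 249 on the rescue arrays with its brighter probe set. The lowest value, of wild-type array 2, and the highest, of rescue array 2, bracket overlapping groups. Knockout differed from wild type by 0.032 ± 0.14 on the log2 scale (adjusted p = 0.970), and the dimmer probe set gave 0.15 ± 0.18. These 2 probe sets hardly followed each other across arrays (r = 0.039, a description over 11 arrays).

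The groups also overlapped for the partners of Hsp70. Dnajb1, the J-domain protein Hsp40, read 758, 556, 681 and 629 on the wild-type arrays, 582, 633, 580.3 and 619 on the knockout arrays, and 598, 661 and 602 on the rescue arrays. Wild-type arrays 1 and 2 held both ends of this range. The difference of knockout from wild type was -0.11 ± 0.10 (adjusted p = 0.806), with a 95% interval from -0.32 to 0.098. Bag3, which links Hsp70 to selective autophagy, read 648, 599.8, 527 and 599.9 on the wild-type arrays, 596.5, 609, 683 and 612 on the knockout arrays, and 479.7, 690.3 and 697 on the rescue arrays. Rescue array 1 was the lowest of all 11 and the other two rescue arrays the highest. Bag3 differed by 0.076 ± 0.12 between knockout and wild type (adjusted p = 0.903) and by 0.051 ± 0.13 between fat rescue and wild type (adjusted p = 0.946).

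Hsp90aa1 encodes the inducible cytosolic Hsp90. It lies on chromosome 12, like Bdkrb1, the gene of the B1 receptor, with 28 protein-coding genes between them. Its brightest probe set read 2857, 3665, 2546 and 2646 on the wild-type arrays, 2637, 2983, 3665.5 and 3537 on the knockout arrays, and 2498, 3161 and 3042 on the rescue arrays. Wild-type array 2 lay beside the highest knockout array, and the log2 difference of knockout from wild type was 0.13 ± 0.14 (adjusted p = 0.837). The third brightest probe set, singled out after its values were seen, read 769.6, 807, 712 and 1021 on the wild-type arrays, 966, 1193, 1323 and 1226 on the knockout arrays, and 949.9, 1069 and 983 on the rescue arrays. Wild-type array 4 reached into the knockout range, while 3 of 4 knockout arrays lay above every wild-type array. This difference, 0.51 ± 0.12 on the log2 scale, had the smallest unadjusted p of any member probe set (0.000709) and did not pass over all probe sets (adjusted p = 0.441; 0.195 to 0.794 over the alternatives). In fat rescue against wild type the third brightest gave 0.29 ± 0.13 (limma unadjusted p = 0.0437, adjusted p = 0.741). There the brightest gave -0.0062 and the second brightest 0.17. In knockout against wild type the second brightest gave -0.065 ± 0.10, so the probe sets of Hsp90aa1 did not share a direction. The second brightest read 1834.5 to 2204 in fat rescue, above the 1521 to 1817 of knockout (log2 0.23 ± 0.11, unadjusted p = 0.0486, adjusted p = 1.0).

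**Figure D2:**
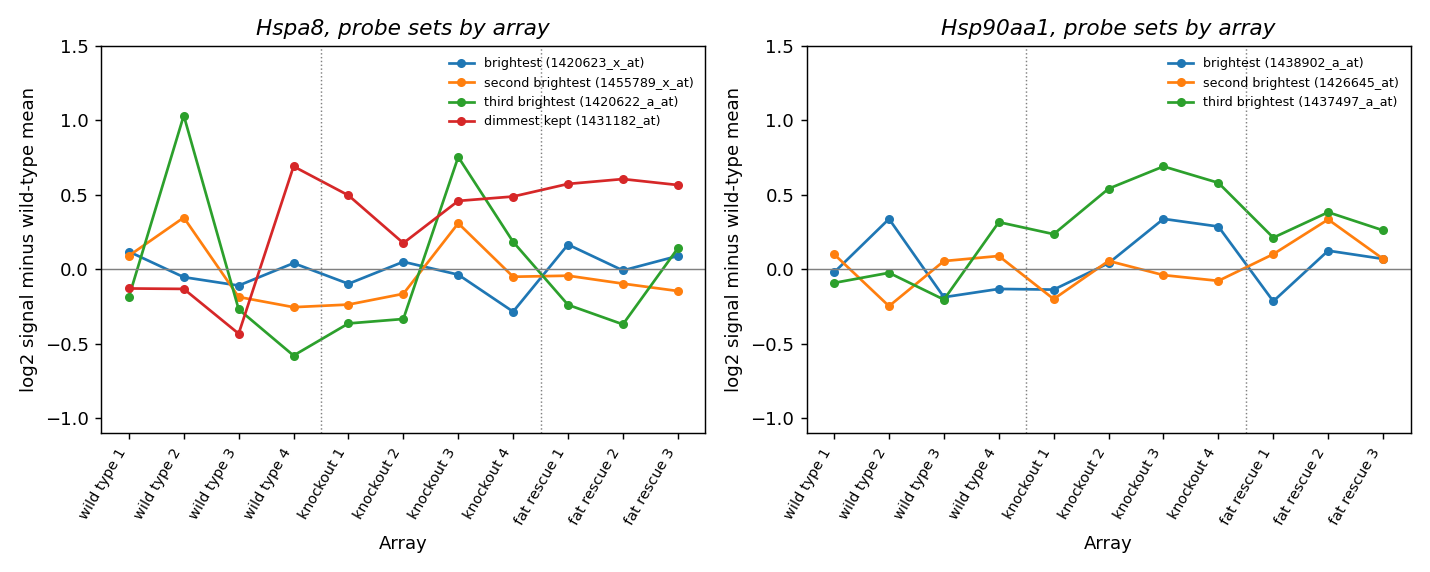
Log2 signal of each kept probe set of Hspa8 (left) and Hsp90aa1 (right) minus its own wild-type mean, on the 11 arrays in order of genotype; dotted lines part the genotypes. The third brightest probe set of Hspa8 peaks in wild-type array 2 (2781) and knockout array 3 (2293), and that of Hsp90aa1 is highest in knockout arrays 2 to 4 (1193 to 1323).

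Hspb1, the small heat shock protein Hsp25, was the one member whose gene-level values separated a genotype from the others. Its brighter probe set read 3287.5, 3200.3, 3228 and 3365 on the wild-type arrays, 3161, 3099.6, 2716 and 3203 on the knockout arrays, and 3403, 3702 and 4114 on the rescue arrays. Each of the 3 rescue arrays lay above all 8 others, the lowest of them by little. With each array centred on its median, rescue array 1 lay below wild-type arrays 1 and 2, though still above all knockout arrays. Over the alternatives the log2 difference of fat rescue from wild type ran from 0.087 to 0.28. The mean was 3740 ± 357 (SD, n = 3) in fat rescue against 3045 ± 224 (n = 4) in knockout, a log2 difference of 0.30 ± 0.09 (SE; unadjusted p = 0.00518) or 1.23-fold, with a 95% interval from 1.08-fold to 1.40-fold. It did not pass over all genes (limma adjusted p = 0.998, and 0.708 to 1.0 over the alternatives), and the two-sided exact permutation p was 0.0286, the smallest that 4 against 3 arrays allow. Against wild type at 3270.25 ± 73.0 (n = 4) the difference was 0.19 ± 0.09 (adjusted p = 0.618, and 0.542 to 0.930 over the alternatives; exact permutation p = 0.0286). Knockout and wild type overlapped, at -0.11 ± 0.08 (adjusted p = 0.791; exact permutation p = 0.0571).

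The dimmer probe set of Hspb1 read 1934, 2032, 2247 and 2315 on the wild-type arrays, 2018, 2112, 1823 and 2028.5 on the knockout arrays, and 2284, 2187 and 2878 on the rescue arrays. Its rescue arrays lay above all knockout arrays and overlapped the wild-type ones. The ID of this dimmer probe set ends in _x_at, and whether it reads Hspb1 alone was not checked. The difference from knockout was 0.29 ± 0.11 (unadjusted p = 0.0193, adjusted p = 1.0). Without rescue array 3 the brighter probe set still gave 0.22 against knockout, and 0.12 against wild type in place of 0.19. Of all genes, 4.93% separated fat rescue from knockout and 9.24% separated it from wild type, against 1 of 10 members in each; 3.84% of genes and 0 members separated knockout from wild type. Over single probe sets the shares were 5.24%, 7.23% and 3.63% of all, against 4, 1 and 0 of 23.

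Markers of other cells mostly had higher means in fat rescue than in knockout, and several lists also than in wild type. The summed signal of all 6 mesothelial markers was 3870.5 to 4595 in fat rescue, 3192 to 3935 in knockout and 2380.2 to 3792 in wild type, and 5 of 6 had higher means in fat rescue than in knockout. The 5 smooth muscle markers, all with higher means in fat rescue than in knockout, summed to 9306 to 10055, 7298 to 9722 and 6929 to 12091. Against wild type 2 of these 5 were higher and 3 lower (median log2 difference -0.056). Without wild-type array 1 and rescue array 1, all 5 were lower than wild type in fat rescue (median -0.26) and in knockout (median -0.46, against -0.18 with all arrays, with 4 of 5 at an unadjusted p under 0.05), and 4 of 5 were higher in fat rescue than in knockout. All 6 endothelial markers had higher means in fat rescue than in knockout, with sums of 3491 to 4867, 3007.5 to 3903 and 3427 to 4058. None of these 17 genes passed the test. All 8 macrophage markers had higher means in fat rescue than in either other genotype, and the mean of the list relative to wild type was 0.29 to 0.59 in the rescue arrays, above the -0.25 to 0.27 of wild type (overlapping with centring on the array median). The 5 measured lymphocyte markers, which were dim, summed to 291 to 352 in fat rescue, 224 to 532 in knockout and 175 to 313 in wild type. All 5 had higher means in fat rescue than in wild type (median 0.49; 4 of 5 with quantile normalization or centring), and 3 of 5 than in knockout. Skeletal muscle markers (3 measured) summed to 223 to 388 in fat rescue, 137 to 648 in knockout and 174 to 570 in wild type. Of these, 2 of 3 had higher means in fat rescue than in knockout, and 1 of 3 than in wild type. No marker of these lists passed either. For beta-actin, signal near the 3' end over signal near the 5' end, a measure of RNA quality, came to 1.47 to 1.56 in fat rescue, 1.53 to 1.69 in knockout and 1.65 to 1.83 in wild type. The same ratio for Gapdh overlapped between genotypes, at 0.918 to 0.9496 in fat rescue, 0.865 to 1.001 in knockout and 0.918 to 1.03 in wild type. The part of these markers and of RNA quality in the Hspb1 values was not tested.

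The mitochondrial pair Hspd1 and Hspe1, which encode Hsp60 and Hsp10, had lower means in both receptor-deleted lines than in wild type, within the spread of the arrays. Hspd1 read 4119.8, 3168, 3985 and 3386 on the wild-type arrays, 3358, 3607.5, 3372 and 3277.5 on the knockout arrays, and 3408, 3793.5 and 2872 on the rescue arrays. Wild-type arrays 1 and 3 were the highest and rescue array 3 the lowest. The log2 difference from wild type was -0.10 ± 0.11 in knockout (adjusted p = 0.842; 95% interval -0.33 to 0.13) and -0.13 ± 0.11 in fat rescue (adjusted p = 0.803). The brighter probe set of Hspe1 read 1923, 1585, 1839 and 1459 on the wild-type arrays, 1683, 1533, 1450.4 and 1448 on the knockout arrays, and 1455, 1718 and 1444.5 on the rescue arrays. Again wild-type arrays 1 and 3 were the highest, and wild-type array 4 lay among the lowest. The difference was -0.15 ± 0.10 in knockout (adjusted p = 0.762) and -0.14 ± 0.11 in fat rescue (adjusted p = 0.769). Wild-type array 1, which stood apart on the main axis, was the highest for both genes, and without it these differences were smaller. Over the alternatives, knockout against wild type ran from -0.25 to -0.020 for Hspd1 and from -0.30 to -0.049 for Hspe1. The dimmer probe set of Hspe1 gave 0.051 ± 0.10 in knockout against wild type, so the sign depends on the probe set. The ID of the brighter one ends in _s_at, a kind that can bind transcripts of several genes.

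Set beside all genes, the members' differences were as follows. Between knockout and wild type 7 of 10 had lower means, against 46.3% of all genes, with a median log2 difference of -0.095 against 0.016 for all genes. All 7 fat cell markers also had lower means there, with a median of -0.22, and their part was not tested. The direction of the members depends on the scaling. When each array was centred on its median, which moves the median of all genes to -0.13, all 10 members were lower and their median was -0.24; with quantile normalization 8 were lower and the median was -0.019. Between fat rescue and knockout 5 of 10 were lower (47.4% of all genes; median -0.00017 against 0.010), and with centring 1 of 10. Between fat rescue and wild type 5 of 10 were lower (44.3% of all genes, median 0.0030 against 0.028), and with centring 8 of 10. Without wild-type array 1 and rescue array 1, 7 of 10 were higher in fat rescue than in knockout (median 0.055). The same number were then higher in fat rescue than in wild type (median 0.074). In knockout 7 of 10 stayed lower than in wild type (median -0.046). Wild-type array 1 had the highest mean of the members among wild-type arrays, and rescue array 1 the lowest among rescue arrays. With all arrays, an unadjusted limma p under 0.05 was reached by 0 members in knockout against wild type (7.30% of genes). It was reached by 1 in fat rescue against knockout (3.81%) and 0 in fat rescue against wild type (8.09%). With centring these counts were 4 of 10 in knockout against wild type, where 2216 of 12709 genes reached it, 1 in fat rescue against knockout (615 genes) and 0 in fat rescue against wild type (1322 genes). Without wild-type array 1 and rescue array 1, and not centred, they were 0 (737 genes), 1 (658 genes) and 2 (847 genes). With all arrays and without centring, the counts for probe sets were 1 of 23 (6.53% of all), 3 of 23 (4.13%) and 2 of 23 (6.68%).

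**Figure D3:**
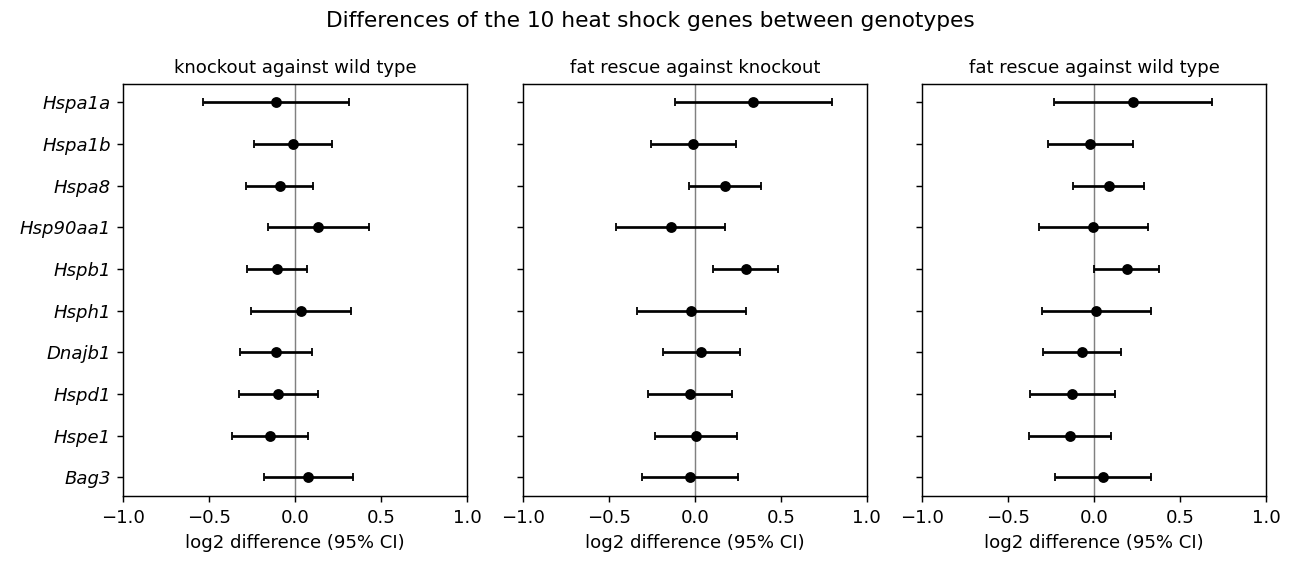
Log2 difference of each heat shock gene in the 3 comparisons of genotypes, with 95% confidence intervals from limma (points are differences of group means, bars the intervals). In knockout against wild type every interval holds 0 and all lie between -0.54 and 0.43; the interval of Hspb1 in fat rescue against knockout, from 0.11 to 0.49, is the 1 of 30 that does not hold 0.

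Over the 10 members, the intervals of knockout against wild type ran from 0.688-fold to 1.34-fold, both ends set by the members with the widest spread, Hspa1a and Hsp90aa1. Those of fat rescue against knockout ran from 0.729-fold to 1.74-fold and those of fat rescue against wild type from 0.769-fold to 1.61-fold. The members differed in their spread between arrays of a genotype: Hspb1 had a within-genotype SD of 0.098 on the log2 scale and Hspa8 of 0.12, at percentiles 6.98 and 12.6 of all genes, whereas Hspa1a, at 0.29, lay at percentile 67.5. The median over all genes was 0.22.

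No relation between the members' signals from array to array passed its test. Hspa1b, the brighter of the inducible pair, was set against each of the other 9 over all 11 arrays. None of the 9 relations passed (permutation p adjusted over 9 at least 0.350 for r and 0.562 for rho). The strongest were negative: Hspa1b against Hsph1 had r = -0.53 (permutation p = 0.0983, rho = -0.38, p = 0.25) and against Dnajb1 r = -0.53 (permutation p = 0.0956, rho = -0.48, p = 0.136). Without wild-type array 2 and knockout array 4, the farthest on the Hspa1b axis, these were -0.40 and -0.56, and that with Hspd1 went from -0.50 to -0.71. Its neighbour Hspa1a gave r = 0.19 (permutation p = 0.585, rho = 0.064, p = 0.860).

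All 45 pairs of members were computed after the values had been seen. In 23 of them r was positive, the median r was 0.00034, and 0 passed after adjustment over the 45 (7 had an unadjusted permutation p under 0.05). The highest was that of Dnajb1 with Hspd1 (r = 0.82, permutation p = 0.00184, adjusted p = 0.0637; rho = 0.79, p = 0.00542, adjusted 0.148), which was 0.72 without wild-type arrays 1 and 2. Next came the head-to-head pair Hspd1 and Hspe1 (r = 0.79, permutation p = 0.00283, adjusted p = 0.0637; rho = 0.73, p = 0.0140, adjusted 0.158), at 0.69 without wild-type array 1 and rescue array 3. Hspa1a ran against Hspd1 (r = -0.70, permutation p = 0.0165, adjusted p = 0.173; rho = -0.59, p = 0.0603), but r was -0.47 without rescue arrays 1 and 3. Genotype-centred values kept the signs of these pairs, at 0.81, 0.76 and -0.79. All these values share the RNA sample and the scaling of the array.

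**Figure D4:**
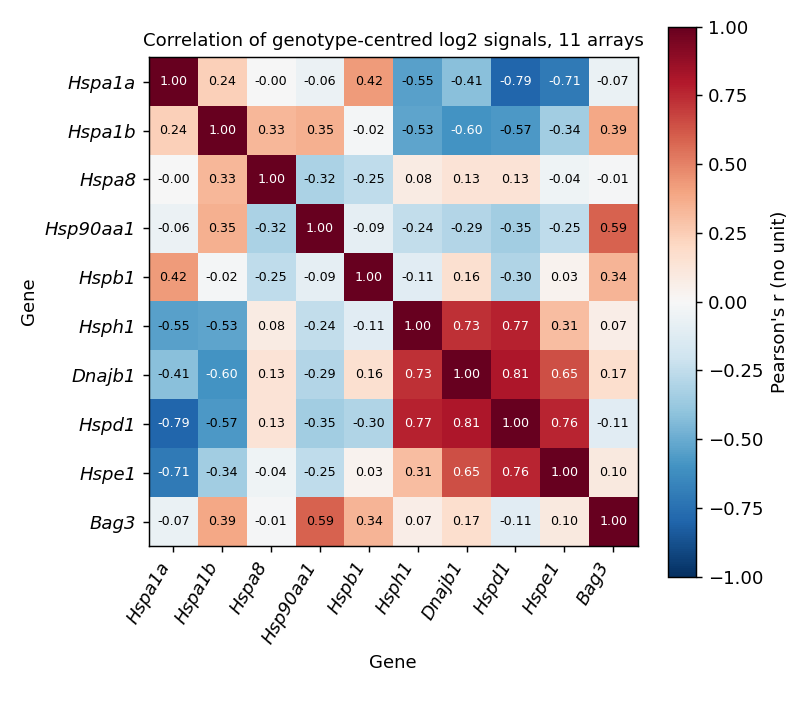
Pearson's r between log2 signals of the 10 heat shock genes over 11 arrays after each genotype's mean was subtracted; rows and columns are genes, colour and number give r. Hsph1, Dnajb1, Hspd1 and Hspe1 form a block of positive values up to 0.81, and Hspa1a has negative values with the same genes, down to -0.79 with Hspd1.

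The genes whose pattern over the 11 arrays was most like that of Hspd1, by Pearson's r of log2 signal among all genes, were Emc6 (0.94), Mdh1 (0.94), Vdac1 (0.93), Dlst (0.92) and Slc24a3 (0.92). Mdh1 encodes cytosolic malate dehydrogenase, Vdac1 the channel of the outer mitochondrial membrane and Dlst a subunit of the oxoglutarate dehydrogenase complex. Those most like Hspa1b were Plpp1 (0.86), Smpdl3a (0.83), Eva1c (0.82), Ctnna1 (0.82), the gene of alpha-catenin, and Nrd1 (0.81). They are the highest among all genes other than the members, and the values are a description.

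Other chaperones were also within the test's limit: 0 of 68 measured genes in 8 lists passed in any comparison. In knockout against wild type, the lowest unadjusted p was that of Dnajb14, a J-domain protein of the endoplasmic reticulum membrane, which read 246 ± 10.4 (SD) in the 4 wild-type arrays and 365 ± 22.8 in the 4 knockout arrays, higher by 0.57 ± 0.11 on the log2 scale (limma adjusted p = 0.185). Of 11 J-domain genes 4 had higher and 7 lower means (median -0.07). Of 5 measured small heat shock genes other than Hspb1, 4 were lower in knockout, with Cryab, alphaB-crystallin, at -0.47 ± 0.20 (adjusted p = 0.683), and all 5 were higher in fat rescue than in knockout (median 0.18), with Hspb7, known from heart muscle, at 1.09 ± 0.46 (adjusted p = 0.998). Relative to wild type, the mean of the list was 0.40 and 0.20 in rescue arrays 2 and 3, while rescue array 1 stood at -0.23. In knockout arrays 1 to 4 it was -0.13, -0.22, -0.60 and 0.10, so array 3 was far the lowest. With both outlying arrays left out, the other two rescue arrays (0.22 and 0.42) lay above knockout (-0.58 to 0.11) and wild type (-0.14 to 0.15). None of these genes passed with all arrays.

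Of 13 mitochondrial chaperones and proteases 7 were lower in knockout than in wild type (median -0.023). This direction turned with the setting: all 13 were lower with centring (median -0.17), and 8 of 13 were higher without wild-type array 1 and rescue array 1 (median 0.034). Trap1, the mitochondrial Hsp90, read 1765 ± 250.3 in wild type, 1449 ± 78.2 in knockout and 1405 ± 88.5 in fat rescue, at log2 -0.28 ± 0.10 and -0.32 ± 0.10 (adjusted p = 0.634 and 0.484). The matrix protease Lonp1 read 862 ± 99.8, 734 ± 17.4 and 712 ± 105, with adjusted p = 0.683 and 0.577, while Hspa9, the mitochondrial Hsp70, differed by -0.073 and -0.042. In the list of Hsp90 and its co-chaperones 9 genes were measured, while Hsp90ab1 had no probe set with its symbol alone. Of the 9 measured, 7 had lower means in fat rescue than in wild type (median -0.057). Their mean relative to wild type was -0.11 to -0.092 in the rescue arrays, below the -0.014 to 0.022 of wild type, and it overlapped that of knockout (-0.099 to 0.011). The rescue arrays stayed below wild type with quantile normalization, centring, log2(value + 50) and without both outlying arrays (6 of 9 lower in the last), and this list mean was not tested. Ppp5c, a phosphatase bound to Hsp90, had -0.27 ± 0.10 in knockout against wild type (adjusted p = 0.636), and Fkbp5, an immunophilin that glucocorticoids induce, -0.43 ± 0.20 in fat rescue against knockout (adjusted p = 0.998). In the TRiC chaperonin and prefoldin, 8 of 13 genes were lower in knockout than in wild type (median -0.024), and 12 with centring (median -0.17). However, 7 of 13 were higher with quantile normalization (median 0.013) and without both outlying arrays (median 0.0065). The lowest unadjusted p was that of Cct2, at -0.21 ± 0.08 (adjusted p = 0.683). Of the 8 Hsp70 co-chaperones, the Hsp70-interacting protein St13 read 2903.5 ± 169 in fat rescue and 3539.8 ± 405 in wild type (log2 -0.28 ± 0.13, adjusted p = 0.596). Among 7 other Hsp70 genes Hspa12b, known from endothelium, had 320.3 ± 45.4 in fat rescue and 242 ± 28.5 in knockout (log2 0.40 ± 0.13, adjusted p = 0.998), beside the endothelial sums given above. Of the heat shock factor genes and regulators, Hsf4 and Hsbp1 were measured, at -0.32 ± 0.25 and -0.11 ± 0.07 in knockout against wild type (adjusted p = 0.791 and 0.743). Hsf1, the gene of heat shock factor 1, had no probe set with its symbol alone and was not measured.

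Immediate early genes, transcription factors and feedback regulators that answer to stimuli and handling within minutes were measured beside the heat shock genes. Of 20 measured, 16 had higher means in knockout than in wild type (median 0.20; 12 of 20 and 0.05 with arrays centred on their median) and 20 in fat rescue (median 0.35; 16 of 20 with centring), yet 0 passed over all genes. Their mean, taken relative to wild type, was 0.19 to 0.35 in the 4 knockout arrays, 0.30 to 0.54 in the 3 rescue arrays and -0.031 to 0.029 in the 4 wild-type arrays, without overlap with wild type. The mean of the 10 heat shock genes was -0.082 to -0.014, -0.061 to 0.068 and -0.041 to 0.064 in the same arrays, with overlap throughout; with centring, the 4 knockout arrays (-0.24 to -0.13) lay below wild type (-0.068 to 0.12). Without the lowest-scoring arrays, wild-type array 1 and rescue array 1, the heat shock mean was 0.073 to 0.089 in fat rescue, above knockout (-0.061 to 0.0068) and wild type (-0.019 to 0.024). With all arrays, these were the highest wild-type array (0.064) and the lowest rescue array (-0.061) of this same mean. Leaving them out thus draws the groups apart by itself, with only rescue arrays 2 and 3 remaining, and no conclusion is drawn from it. Egr1 read 665 ± 129 in knockout and 419.75 ± 96.5 in wild type (log2 0.68 ± 0.20, adjusted p = 0.566), and Atf3, a stress-induced repressor, 180 ± 58.9 in fat rescue against 83.1 ± 15.3 (log2 1.08 ± 0.29, adjusted p = 0.40). The difference between these lists was not tested. Macrophage markers summed to 13927 to 19591 in wild type, 15046 to 29403 in knockout and 19584 to 23628 in fat rescue, with 8 of 8 higher by mean in each line (in knockout 5 of 8 with centring). In knockout the list mean was 0.97 in array 1, while the other 3 arrays, at -0.083 to 0.13, lay within the wild-type range. The part of these markers was not tested.

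**Figure D5:**
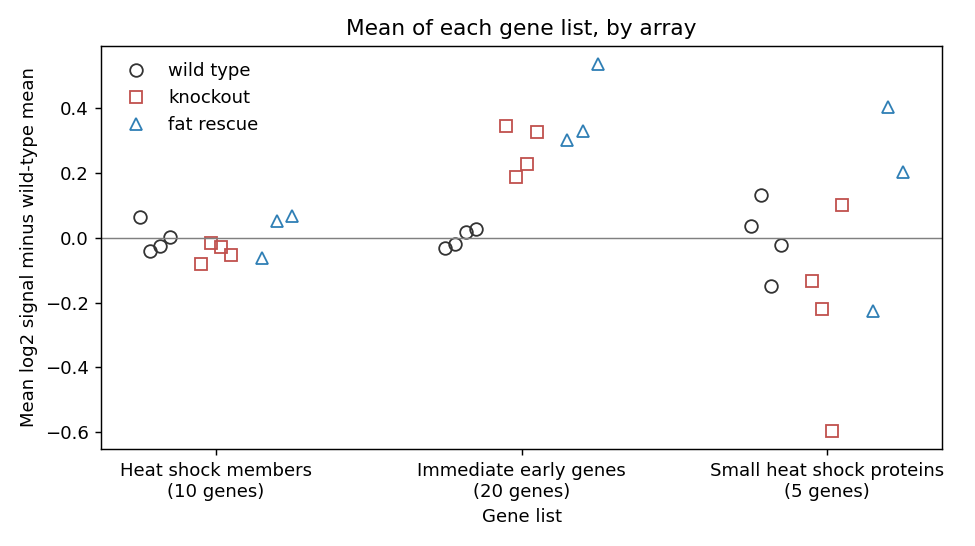
Mean over a list's genes of log2 signal minus the gene's wild-type mean, 1 point per array (circles wild type, squares knockout, triangles fat rescue). The 10 heat shock genes overlap between genotypes around 0, the 20 immediate early genes lie at 0.19 to 0.54 in every knockout and rescue array, and the 5 small heat shock genes spread from -0.60 to 0.40.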

How the data were processed

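The authors deposited 1 signal intensity for each probe set on a linear scale; per the submitters' processing notes, GCOS 1.3 and MAS5 were used. GEO's platform annotation gave a single gene symbol to 34945 of the 45101 probe sets, several to 932 and none to 9160, beside 64 controls; no probe set with several symbols named a member. A single value of 0 was set to 0.1 before log2 was taken. The brighter 60% of probe sets by mean log2 signal were kept (27022), and each gene was its brightest kept probe set. All 11 arrays were fitted with limma 3.58.1 (eBayes with trend, genotype as the only factor) in R 4.3.3, two-sided, with Benjamini-Hochberg adjustment over all 12709 genes, and again over all 45037 non-control probe sets. Intervals are limma's at 95%. Permutation tests over samples were exact, or drew 100000 permutations for correlations. Of these steps, only the limma fit, for knockout against wild type, was tested on simulated data. The labels give no batch.

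Named are all 10 members, up to 4 genes per list with the smallest unadjusted p, and the 5 genes most like Hspd1 and Hspa1b. Members, lists and tests were chosen with earlier results of these data known. Deviations from the genotype means correlated between same-numbered arrays at r from -0.14 to 0.35. All 3 pairs of number 1 (0.14, 0.19 and 0.35, the last between the 2 arrays that stood apart) and the pair of number 4 (0.23) were above 0.1, and those of numbers 2 and 3 were not. The labels do not say that a number is shared, so arrays were not paired. Alternatives were quantile normalization, median centring, log2(value + 50), filters at none and at the upper 40%, averaging over a gene's probe sets, robust or untrended eBayes, array weights, fits of just the compared pair of groups, a replicate block, and leaving out each array or the 2 that stood apart. The scaling checks of list means, the singled-out probe sets of Hsp90aa1 and Hspb1 and the 45 pairs were added after the values were seen. Promoters are RefSeq's on GRCm38.p6; the files name no build.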

Additional observations from a re-analysis of the deposited data

Results flagged for a closer look

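In groups of 4 arrays, the highest or lowest array was set against Dixon's 95% critical value for each member probe set, which chance exceeds in about 1 in 20 groups. Of 46 groups tested 5 held an array far from the other 3. The dimmest kept probe set of Hspa8 read 59.9 in knockout array 2, below the other knockout arrays at 72.9 to 74.8. The second brightest probe set of Hsp90aa1 read 1472.3 in wild-type array 2, below the other wild-type arrays at 1815.8 to 1874. A further one of Hsp90aa1, too dim to be kept, read 1.0 in knockout array 3, against 9.0 to 12.7 in the others. The dimmer probe set of Dnajb1 held the remaining cases: wild-type array 1 at 592.0, above 470.8 to 479.3, and knockout array 1 at 399.3, below 500.2 to 509.2.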

How the results depend on the processing

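No heat shock gene passed the test under any of the 23 alternatives. No probe set of these genes passed under those run on single probe sets, which leave out the other filters on brightness and the averaging over probe sets. The smallest adjusted p of a member gene was 0.202, with each array centred on its median. Of 810 values under the alternatives, those of the member genes and of the singled-out probe sets of Hsp90aa1 and Hspb1, 757 kept their direction. The 53 that changed sign were all of member genes. Part of the 757 could not change. The filters on brightness, the eBayes settings and fits of just the compared groups leave a member's difference as it is. So does leaving out an array of the third genotype. Centring adds the same amount to every gene's difference in a comparison, which turned the signs listed for it below. The cause of the other sign changes was not tested. With quantile normalization Hsph1 became -0.0026 (knockout) and -0.023 (fat rescue) relative to wild type, and Hsp90aa1 became 0.073 (fat rescue). With centring, knockout against wild type became -0.015 for Hsp90aa1, -0.12 for Hsph1 and -0.072 for Bag3. Fat rescue against knockout became 0.038 for Hspa1b, 0.026 for Hsph1, 0.018 for Hspd1 and 0.020 for Bag3, and fat rescue against wild type -0.019 for Hspa8, -0.090 for Hsph1 and -0.052 for Bag3. With probe sets averaged per gene Hspa8 became 0.085 in knockout against wild type, Hspe1 -0.071 in fat rescue against knockout and Hsp90aa1 0.15 in fat rescue against wild type, which array weights put at 0.036. Without wild-type array 1 and rescue array 1 together, Hspa1b became 0.045 and Bag3 0.15 in fat rescue against knockout, and Hsp90aa1 0.091 and Dnajb1 0.026 in fat rescue against wild type. The replicate block, with the labels' replicate number as a factor, turned Hsph1 to 0.0080 and Hspe1 to -0.040 in fat rescue against knockout and raised the genes called between knockout and wild type from 5 to 8.

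When each array was left out in turn, the difference of fat rescue against wild type ran from -0.15 to 0.00012 for Dnajb1, -0.11 to 0.037 for Hspa1b, -0.072 to 0.11 for Hsp90aa1, -0.13 to 0.13 for Hsph1, -0.041 to 0.23 for Bag3 and -0.017 to 0.49 for Hspa1a. The difference of knockout against wild type ran from -0.060 to 0.058 for Hspa1b and -0.073 to 0.084 for Hsph1. The difference of fat rescue against knockout ran from -0.093 to 0.045 for Hspa1b, -0.16 to 0.10 for Hsph1, -0.12 to 0.080 for Hspd1, -0.074 to 0.055 for Hspe1, -0.12 to 0.15 for Bag3 and -0.0081 to 0.065 for Dnajb1. Genes called in knockout against wild type ran from 2 to 14 (14 without wild-type array 1). Genes called in fat rescue against wild type ran from 1 to 8 (8 without wild-type array 1).

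The genes called between knockout and wild type, 5 as reported, were 10 with centring, 2 without the trend, 2 with just the groups compared and 14 without both outlying arrays. Those between fat rescue and wild type, 2 as reported, were 5 with centring, 6 with the upper 40% of probe sets, 1 with averaged probe sets, 1 without the trend, 1 with robust eBayes, 7 with array weights, 1 with just the groups compared and 6 without both outlying arrays. With 3 or 4 arrays a genotype, the number of arrays limits the precision.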
